A study of Mus musculus with 16 samples.

Results

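The expression of 10 genes of the early transcriptional response, Fos, Fosb, Fosl1, Fosl2, Jun, Junb, Jund, Atf3, Egr1 and Myc, was followed in hair follicle stem cells (HFSCs) and progenitors. They were taken by gene symbol from the 22579 genes in the count tables, and the transcript with the most ribosome footprints stood for each gene. The study asked how polyamines act on stem cell fate in HFSC organoids, a 3D–3C culture that holds HFSCs and progenitors side by side. Epidermal cells of 2 C57BL/6J mice were grown for 2 weeks, released with trypsin and sorted on integrin α6 and CD34 into α6+CD34- progenitors and α6+CD34+ HFSCs. The labels give no age for the mice. Cultures were left untreated or received N1-acetylspermidine (N1-AcSpd), an acetylated polyamine, for 72 h before the sort. Each of the 4 groups (untreated or N1-AcSpd-treated, progenitors or HFSCs) gave 2 RNA-seq and 2 Ribo-seq libraries, 16 in all, and the replicate number names the donor mouse. All p-values therefore rest on the spread between 2 animals per group.

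The 10 genes encode transcription factors, and the mRNAs of several, such as Fos and Egr1, appear within minutes of a signal and decay quickly. FOS and JUN proteins pair through a leucine zipper to form AP-1, which binds TGANTCA sites. JUN proteins can also pair with themselves, whereas FOS proteins need a partner, and ATF3 is a stress-induced relative that pairs with JUN proteins. EGR1 is a zinc finger factor switched on by MAP kinase signalling through serum response factor. MYC drives ribosome synthesis, growth and division, and Odc1, which encodes the first enzyme of polyamine synthesis, is a known MYC target. In epidermis, AP-1 is known for its role at keratinocyte differentiation genes. These genes are also known to respond to dissociation and sorting of tissue, steps that every library shared.

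To show the control regions of the 4 members in which a match was found, 300 bases around the transcription start were taken from RefSeq (GRCm38.p6). Each sequence begins 250 bases before the start, is read 5′ to 3′ on the strand of the gene, and has in capitals each TGACGT (the core of a cAMP response element), TGACNTCA (an AP-1 or ATF site) and TATAAA, searched on both strands.
Fos, chr12:85473640-85473939, plus strand: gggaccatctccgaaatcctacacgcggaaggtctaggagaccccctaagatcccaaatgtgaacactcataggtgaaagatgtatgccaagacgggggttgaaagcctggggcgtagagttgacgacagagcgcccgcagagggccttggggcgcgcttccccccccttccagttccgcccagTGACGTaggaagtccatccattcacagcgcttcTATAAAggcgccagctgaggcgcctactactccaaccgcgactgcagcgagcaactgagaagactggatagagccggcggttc
Jun, chr4:95052173-95052472, minus strand: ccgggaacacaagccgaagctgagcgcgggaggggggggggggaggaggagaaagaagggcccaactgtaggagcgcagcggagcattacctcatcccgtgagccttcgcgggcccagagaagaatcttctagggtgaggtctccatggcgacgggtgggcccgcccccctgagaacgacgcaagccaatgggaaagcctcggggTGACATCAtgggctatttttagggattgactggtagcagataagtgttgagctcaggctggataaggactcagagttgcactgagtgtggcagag
Junb, chr8:84978699-84978998, minus strand: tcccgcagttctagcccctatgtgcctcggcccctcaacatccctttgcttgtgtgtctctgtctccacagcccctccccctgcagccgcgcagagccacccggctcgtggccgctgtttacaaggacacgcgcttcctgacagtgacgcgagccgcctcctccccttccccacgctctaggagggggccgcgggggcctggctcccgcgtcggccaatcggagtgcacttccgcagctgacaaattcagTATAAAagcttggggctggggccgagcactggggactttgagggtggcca
Atf3, chr1:191183284-191183583, minus strand: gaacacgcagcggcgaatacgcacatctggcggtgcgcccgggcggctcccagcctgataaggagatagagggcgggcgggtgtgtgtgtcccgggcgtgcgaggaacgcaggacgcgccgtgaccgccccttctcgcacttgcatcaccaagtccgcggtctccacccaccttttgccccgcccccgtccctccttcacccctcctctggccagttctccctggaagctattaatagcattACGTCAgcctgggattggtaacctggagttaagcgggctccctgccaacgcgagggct
In the Fos promoter TGACGT began 66 bases and TATAAA 33 bases before the start, and in the Jun promoter TGACNTCA began 45 bases before it. Atf3 held TGACGT on the opposite strand from 8 bases before the start. The Junb sequence had TATAAA at the start itself, which RefSeq places 30 bases from the first base of the counted transcript. For Fosl2 and Jund the RefSeq start lay 671 and 1210 bases from that base, so their windows need not hold the start of the counted transcript. Promoters of 7 members were in the table (the 4 shown and those of Fosb, Fosl2 and Jund), and Egr1, Fosl1 and Myc had none. TGACGT was found in 2 of the 7 and in 7.51% of all 32851 promoters, TGACNTCA in 1 and in 8.83%, TATAAA in 2 and in 13.6%, CCAAT in 3 (Jun, Junb and Atf3) and in 37.4%. TGANTCA was in 0 of the 7 and in 7.81% of all, and the CArG box, the serum response factor motif, in 0 and in 1.63%. Sites more than 250 bases before the start were not searched, so a motif missing from a window may still lie further upstream.

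The sorted fractions carried their gate marker, with Cd34 at 2.35 to 5.36 CPM (the read count scaled to the TMM-adjusted library total) in the 4 progenitor RNA-seq libraries and 67.4 to 89.9 in the 4 HFSC libraries. RNA-seq libraries held 21601141 to 31505435 counts, and Ribo-seq libraries only 34467 to 267921 footprints. Fibroblast markers (6 genes) summed to at most 13.6 CPM in an RNA-seq library, immune markers (5 genes) to 5.31, endothelial markers (3 genes) to 2.43 and melanocyte markers (4 genes) to 2.12, and Lum, Cd207, Lyz2 and Cdh5 had no count. Basal keratinocyte markers (5 genes) summed to 34525 CPM or more.

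The 2 RNA-seq libraries of treated HFSCs went against their replicate numbers. The difference between the mice, replicate 2 minus replicate 1, correlated across 12242 genes with r = 0.35 to 0.65 among the other 3 groups, but with r = -0.61 to -0.39 between each of these and treated HFSCs. Genes are not independent replicates, and the values describe the libraries. Group means do not depend on the numbers, so the comparisons below were made without them, and results with the mouse as a block are given where they differ. In Ribo-seq the same correlations were between 0.010 and 0.10 over 2259 genes.

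Expressed per length and with the hardly counted Jund left out, mRNAs of the members ranged widely. They reached from among the most abundant of the transcriptome to Fosb, above 35.9% of genes. Junb stood highest with a mean of 227 ± 14.9 CPM per kb of transcript (SD, n = 8 libraries), above 97.8% of the 14185 genes tested with a known length. It was followed by Myc with 171 ± 29.6, Fos with 124 ± 16.1, Jun with 100.3 ± 16.6 and Egr1 with 67.9 ± 13.5 CPM per kb. Each of these neighbours overlapped in range, although Junb exceeded Myc, and Jun exceeded Egr1, in 8 of 8 libraries, and Fos exceeded Jun in 7 of 8. A gap separated Egr1 from Fosl2 (19.5 ± 2.21) and Atf3 (18.3 ± 5.34), which could not be ordered, since Fosl2 was higher in 5 of 8 libraries. Fosl1 with 8.87 ± 2.94 and Fosb with 2.93 ± 0.959 CPM per kb came last among the clearly counted members. Together the 10 genes took 0.149% to 0.198% of the RNA-seq counts of a library.

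Jund, the JUN member that restrains growth in many cells, was hardly counted at all. Its 8 RNA-seq libraries held 37 counts in sum, 1 to 11 in each, and no Ribo-seq library had a footprint, where up to 3 counts per library remain possible. A known antisense gene, Gm11175, covers 52.6% of the exonic bases of Jund (chr8:70698949-70700616, plus strand, 1 exon). Whether the overlap bears on the count was not tested, and Jund is kept out of the account of levels that follows. Fosl1 (chr19:5447547-5455946, plus strand) shares 62.4% of its exonic bases with exons of Ccdc85b on the other strand, and 7.3% of the Jun bases lie in the antisense gene Junos. Values of Fosl1 are uncertain for that reason, since the counting is not stated to use strand.

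The RNA of 0 members passed the adjusted test between any of the 4 groups. Differences of some size were not detectable, since the 95% intervals of the log2 change in the simple comparisons were wide. They ran from -1.52 to 0.25 for Fosl1 (untreated cell types) and from -1.24 to 0.24 for Atf3 (N1-AcSpd in progenitors). Fosb had a wider one, from -1.43 to 0.58 (N1-AcSpd in progenitors). That of the hardly counted Jund reached from -3.34 to 2.31 (untreated cell types). After Benjamini-Hochberg adjustment over all genes, 0 of the 10 passed the quasi-likelihood test of edgeR between untreated HFSCs and progenitors (0.148% of 14205 genes called), 0 between the treated cell types (0.746%), 0 with N1-AcSpd in progenitors (0.239%) and 0 with N1-AcSpd in HFSCs (0%, with 1100 genes at an unadjusted p below 0.05). The averages over both treatments (3.91%) and over both cell types (1.64%) and the interaction (0%, 118 genes unadjusted) also called 0 of 10. At an unadjusted p below 0.05 the members numbered 0 of 10 in 6 of these tests, where 9.58%, 11.2%, 8.88% and 7.74% of genes passed in the simple comparisons in the order above, 18.1% in the average over treatments and 0.831% in the interaction. In the average over cell types (15.6%) there was 1, Fosl2. DESeq2 called 0 members in all 7.

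**Figure D1:**
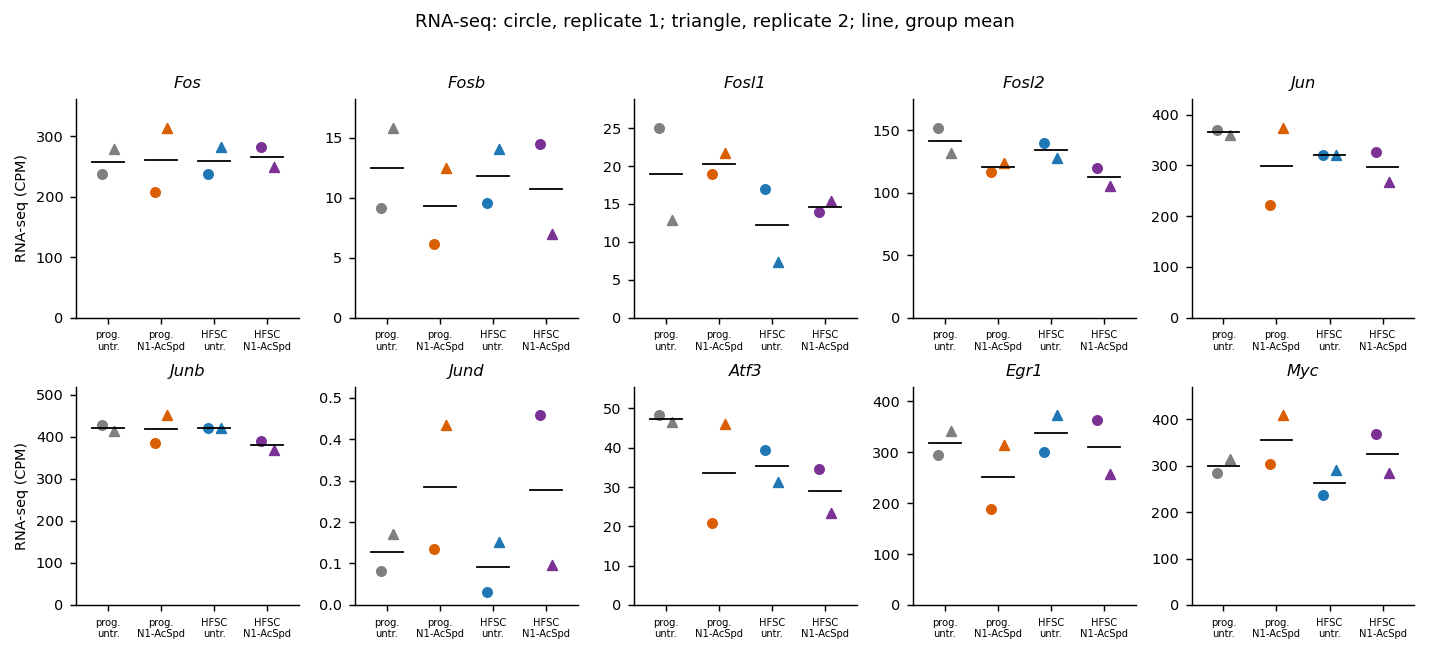
RNA-seq level in CPM of the 10 genes (1 panel each, axes from 0) in the 4 groups, with replicate 1 as a circle, replicate 2 as a triangle and the group mean as a line. Junb spans only 368 to 452 CPM over all libraries, while Fosb, Jun, Atf3 and Egr1 are low in the first treated progenitor replicate and the second treated HFSC replicate.

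Values are given in the order untreated progenitors, untreated HFSCs, treated progenitors and treated HFSCs, with replicate 1 first. Fos (chr12:85473890-85477273, plus strand, 4 exons), the founding AP-1 partner, was counted at 237 and 278, 237 and 282, 209 and 314, and 282 and 249.5 CPM in RNA-seq. All 4 groups overlapped, and the 95% interval of the N1-AcSpd effect on the log2 scale ran from -0.41 to 0.45 in progenitors and from -0.40 to 0.46 in HFSCs. Footprints of Fos came to 126 and 418, 304 and 682, 212 and 486, and 419 and 431 CPM. Replicate 2 was higher in 4 of 4 groups, and the cell types overlapped in both treatments. Over all genes, 63.4% and 59.7% were higher in replicate 2 in untreated progenitors and HFSCs, and 47.6% and 42.0% in treated ones.

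Fosb (chr7:19302696-19310051, minus strand, 4 exons), whose short form accumulates on repeated stimulation, was present at 9.16 and 15.8, 9.52 and 14.1, 6.15 and 12.5, and 14.5 and 7.01 CPM in RNA-seq. The mice differed more than the groups did. Reads were counted on each of its 6 transcripts, with 1936 to 2229 counts over the 8 libraries, so the forms cannot be told apart. Only 2 Fosb footprints were counted, 1 in each treated progenitor library, and 3 counts, the limit for a library with none, equal 12.2 to 75.5 CPM at these depths. Translation of Fosb could therefore not be measured.

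Fosl1, which encodes the FOS-related protein FRA1 tied to migration and wound response, had the largest spread of the 9 counted members (SD 0.52 of log2 CPM over 8 libraries). It stood at 25.1 and 12.9, 17.0 and 7.35, 19.0 and 21.7, and 14.0 and 15.3 CPM in RNA-seq. Replicate 1 was well above replicate 2 in both untreated groups and close to it in both treated groups. Ribo-seq gave 14 Fosl1 footprints, between 0 and 5 in a library. The genes whose RNA pattern over the 8 libraries was most like that of Fosl1, among 12242, were Cpsf6 (Pearson r = 0.99), Ifrd1 (0.98), Smox (0.98), Tiparp (0.98) and Dot1l (0.98). Smox encodes spermine oxidase, an enzyme of polyamine breakdown, and ranged from 31.2 to 65.1 CPM.

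Fosl2, which encodes FRA2, was the member whose RNA moved most steadily with treatment. In untreated progenitors its level was 152 and 132 CPM and in treated progenitors 117 and 124, while in HFSCs it was 140.2 and 128 without and 120.0 and 105 with N1-AcSpd. Treated libraries were below untreated ones in both cell types without overlap. The log2 change averaged over both was -0.24 ± 0.083 (SE), with a 95% interval from -0.43 to -0.055, an unadjusted p of 0.0171 and an adjusted p of 0.199 in edgeR's quasi-likelihood test. It did not pass over all genes. Footprints of Fosl2 were 126 and 178, 215 and 193, 87.1 and 101, and 168 and 149 CPM, lower with N1-AcSpd in both cell types as well, and did not pass either.

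Jun (chr4:95049034-95052222, minus strand, 1 exon), the central AP-1 partner, reached 371 and 360.4, 320.0 and 319.6, 221 and 374, and 327 and 267 CPM in RNA-seq. The untreated mice were nearly equal within each cell type, and the treated ones lay on either side of them. Neither difference passed. Footprints of Jun fell short in treated HFSCs. They amounted to 277 and 279.7 CPM in untreated progenitors, 269 and 217 in untreated HFSCs, 162 and 251 in treated progenitors, but 90.7 and 116 in treated HFSCs. The last pair, 13 and 7 footprints, lay below all 6 other libraries. For N1-AcSpd in HFSCs the log2 change of footprints was -1.24 ± 0.59 (95% interval -2.39 to -0.084, unadjusted p = 0.0355, adjusted p = 1 in edgeR's quasi-likelihood test), and averaged over both cell types it was -0.84 ± 0.40 (unadjusted p = 0.0362, adjusted p = 0.991).

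Junb (chr8:84976910-84978718, minus strand, 1 exon), which counters JUN in many promoters and restrains keratinocyte growth, was the steadiest member. Its RNA came to 429 and 414, 420.2 and 420.1, 386 and 452, and 391 and 368 CPM, a coefficient of variation of 6.55% over 8 libraries. Intervals of the 4 simple comparisons lay between -0.39 and 0.24 on the log2 scale. With 755 footprints in sum it was also the best covered member in Ribo-seq, at 679.6 and 932, 895 and 1196, 859 and 1324, and 782 and 647 CPM. Treated HFSCs and the first untreated progenitor library held the 3 lowest of these values, and treated and untreated HFSCs did not overlap, though the difference did not pass.

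Atf3 (chr1:191170296-191183340, minus strand, 4 exons) was counted at 48.3 and 46.5, 39.5 and 31.2, 20.9 and 46.2, and 34.5 and 23.5 CPM in RNA-seq. Untreated progenitors were above untreated HFSCs without overlap, though the difference did not pass. Its footprints, 50.3 and 77.0, 161 and 96.3, 49.8 and 251, and 76.8 and 66.4 CPM, stemmed from 2 to 19 counts per library. The second treated progenitor library alone, with 15 footprints, set the high value of that group.

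Egr1 (chr18:34859823-34864984, plus strand, 2 exons) stood at 295 and 341, 301 and 373, 188 and 315, and 364 and 257 CPM in RNA-seq. Replicate 2 exceeded replicate 1 in 3 groups, and the order was the opposite in treated HFSCs. In Ribo-seq of the same mice Egr1 gave 151 and 243, 161 and 321, 162 and 268, and 154 and 249 CPM. Replicate 2 was higher in 4 of 4 groups by 0.69 to 0.99 on the log2 scale. Over all genes the median difference was 0.53 in untreated progenitors, 0.42 in untreated HFSCs, 0.0 in treated progenitors and -0.18 in treated HFSCs. Replicate 1 held only 6 and 9 Egr1 footprints in the untreated groups. Group means of the footprints were close, between 197 ± 65.2 and 241 ± 113 CPM (SD, n = 2).

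**Figure D2:**
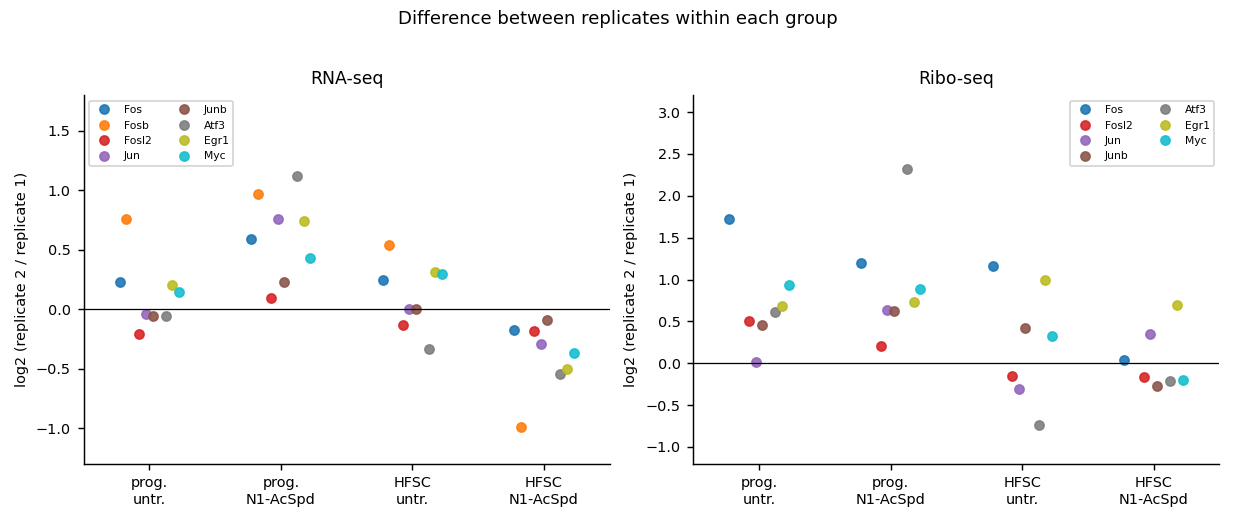
Log2 ratio of replicate 2 to replicate 1 for the members (1 colour each, Fosl1 and Jund left out) in each group, with RNA-seq on the left and Ribo-seq on the right. In RNA-seq all points of treated progenitors are above 0 and all those of treated HFSCs below it, and Egr1 is above 0 in every group of Ribo-seq. In Ribo-seq 63.4% and 59.7% of all genes are above 0 in untreated progenitors and HFSCs.

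In the RNA of treated progenitors all 10 members were higher in replicate 2 (median log2 difference 0.57, against -0.0023 over all genes), and in treated HFSCs 9 of 10 were lower in it (median -0.33, against 0.00045). Over all 14205 genes, 48.8% and 50.1% were higher in replicate 2 in these groups. The opposite order was not particular to the members, since the replicate differences of these groups correlated with r = -0.61 across 12242 genes. Jund is among the 10, at 3 and 9 counts in treated progenitors and 11 and 3 in treated HFSCs. In each untreated group 5 of 10 members were higher in replicate 2. With Jund left out, the first treated progenitor library was the lowest of the 8 for 5 of 9 members (Fos, Fosb, Jun, Atf3 and Egr1). It and the second treated HFSC library each were among the 2 lowest for 7 of 9. How often a library was lowest over all genes was not counted. By their numbers these 2 libraries are of different mice, and with the treated HFSC numbers exchanged they would be of 1. Other immediate early genes (32 genes) went with the members. Their summed RNA was 2725 CPM in the first treated progenitor library and 2843 CPM in the second treated HFSC library, against 3207 to 3632 in the remaining 6 libraries. Summed heat shock genes (6 genes, among them Hspa1a and Hspa1b), which also respond to handling, were at 2761 and 2580 CPM in those 2. The first of these values was the highest of the 8 libraries, which ranged from 2231 to 2761. A sum of this kind mostly reflects its most abundant genes. The part of handling or of the donor in this pattern was not tested.

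Myc (chr15:61985622-61990067, plus strand, 3 exons) was measured at 285 and 315, 237 and 291, 303 and 409.5, and 368 and 284 CPM in RNA-seq. Group means were higher with N1-AcSpd in both cell types, 356 ± 75.2 against 300.1 ± 21.5 CPM in progenitors and 326 ± 59.4 against 264 ± 38.1 in HFSCs (SD, n = 2), with overlapping libraries in both. Averaged over both, the log2 change was 0.28 ± 0.13 (95% interval -0.014 to 0.57, adjusted p = 0.342 in edgeR's quasi-likelihood test). With the mouse as a block by the labelled numbers it did not pass. With the numbers of the 2 treated HFSC libraries exchanged, a fit added after the data were seen, it was 0.27 and passed (adjusted p = 0.0295), the only member to do so in any RNA-seq fit with an adjusted p. That fit called 1260 of 14205 genes in this average, against 233 in the main fit, so the call is not particular to Myc. Footprints of Myc did not share the direction, with 302 and 576, 501 and 626, 299 and 553, and 439.7 and 382 CPM and a mean of 564 ± 88.1 in untreated against 411 ± 41.1 CPM in treated HFSCs.

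In pattern, Myc RNA over the 8 libraries was most like Washc2 (Pearson r = 0.99), Rpp25 (0.97), Itga3 (0.97), mt-Atp6 (0.96) and Vasp (0.96) among 12242 genes. Of the other members Fos came nearest to Myc (r = 0.67), and Fosl2 ran the other way (r = -0.30). These correlations share the library scaling and the pair of mice, and are a description.

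**Figure D3:**
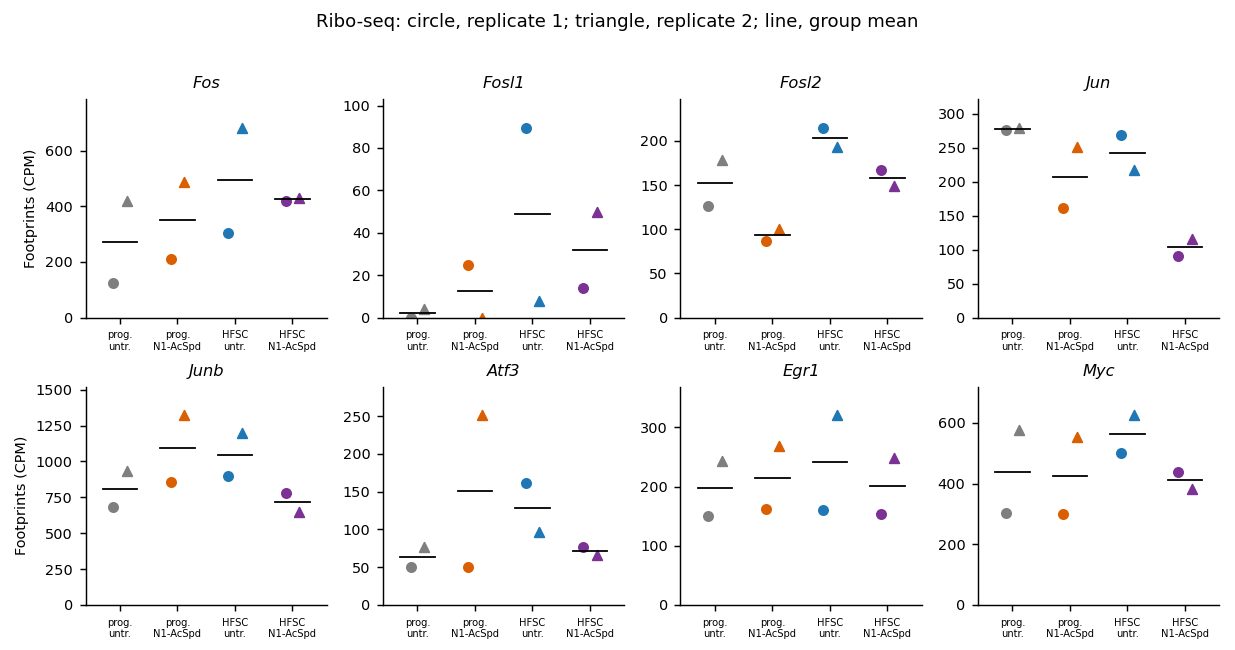
Footprints in CPM of the 8 members with at least 10 footprints in sum, by group, with replicate 1 as a circle, replicate 2 as a triangle and the group mean as a line (axes from 0). Jun in treated HFSCs, at 90.7 and 116, lies below all other Jun libraries, and Egr1 is higher in replicate 2 in every group. Of all genes, 63.4% and 59.7% are higher in replicate 2 in untreated progenitors and HFSCs.

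In Ribo-seq 8 members had at least 10 footprints in sum, and 0 of them passed the adjusted test between untreated cell types (0.0237% of 8431 genes called), treated cell types (0.0356%), with N1-AcSpd in progenitors (0.0237%) or in HFSCs (0%, with 299 genes unadjusted). The averages over treatments (0.154%) and cell types (0.083%) and the interaction (0%, 224 genes unadjusted) called 0 as well, and so did DESeq2. Jun alone had an unadjusted p below 0.05, in the 2 tests named above, where 3.55% and 4.84% of genes did. In the other 5 tests 0 of 8 did, against 2.66%, 3.45% and 2.8% of genes in the simple comparisons, 4.14% in the average over treatments and 2.66% in the interaction. In treated against untreated HFSCs the log2 change was below 0 for 8 of 8 members, with a median of -0.50, where 50.1% of all genes were below 0 with a median of -0.0018. In progenitors 4 of 8 were below 0, with a median of 0.066. The difference between the cell types in this effect was not shown for any member, as the interaction had a smallest unadjusted p of 0.0851 among them.

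Footprints per message, the translational efficiency (TE), was compared by fitting both assays of a comparison together and testing their interaction. At an unadjusted p below 0.05, the threshold of the study, 2 of 8 members were called lower with N1-AcSpd in HFSCs, against 6.87% of 8379 genes called in either direction and 3.95% called lower, and 0 genes passed after adjustment. Jun fell by 1.14 ± 0.47 on the log2 scale (95% interval -2.11 to -0.17, unadjusted p = 0.0238, adjusted p = 0.712 in edgeR's quasi-likelihood test) and Myc by 0.77 ± 0.36 (-1.52 to -0.027, unadjusted p = 0.043, adjusted p = 0.712). For Jun the RNA of the HFSC groups overlapped and the footprints did not, and for Myc the RNA mean was higher and the footprint mean lower. All 8 changes were below 0 in this comparison (median -0.40, against -0.011 over all genes and 50.7% of genes below 0), the remaining 6 between -0.71 and -0.057 without passing. All 8 share the same libraries.

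The calls changed with the libraries and the fit. With the replicate number as a block, Jun was still called (-1.17, unadjusted p = 0.0318) and Myc was not (-0.76, unadjusted p = 0.0776). Without the first untreated HFSC replicate, or without the first treated one, 0 members were called, and Jun then stood at -0.98 (unadjusted p = 0.0903) and -0.77 (unadjusted p = 0.252) in edgeR's test. Because the block depends on how the treated HFSC libraries of RNA-seq are numbered, it was also fitted with those 2 numbers exchanged, after the data were seen, and then called both Jun (-1.18, unadjusted p = 0.0258, adjusted p = 0.794) and Myc (-0.76, unadjusted p = 0.0367, adjusted p = 0.816).

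The other TE comparisons called 0 members: between untreated cell types (5.24% of 8766 genes called), between treated cell types (6.24% of 8010), and with N1-AcSpd in progenitors (6.1% of 8522), where Fosl1 had too few footprints and 7 were tested. The replicate block added Fos (0.68, unadjusted p = 0.0189) and Fosl1 (3.25, unadjusted p = 0.041) between untreated cell types, both higher in HFSCs, and Atf3 (2.01, unadjusted p = 0.00317) with N1-AcSpd in progenitors, all unadjusted in edgeR's test and with no adjusted p below 0.05. The Fosl1 value rests on 7 footprints in the 4 untreated libraries, 6 of them in HFSCs. The share of all genes called with the block is not given here, so these added calls have no background share to be read against.

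**Figure D4:**
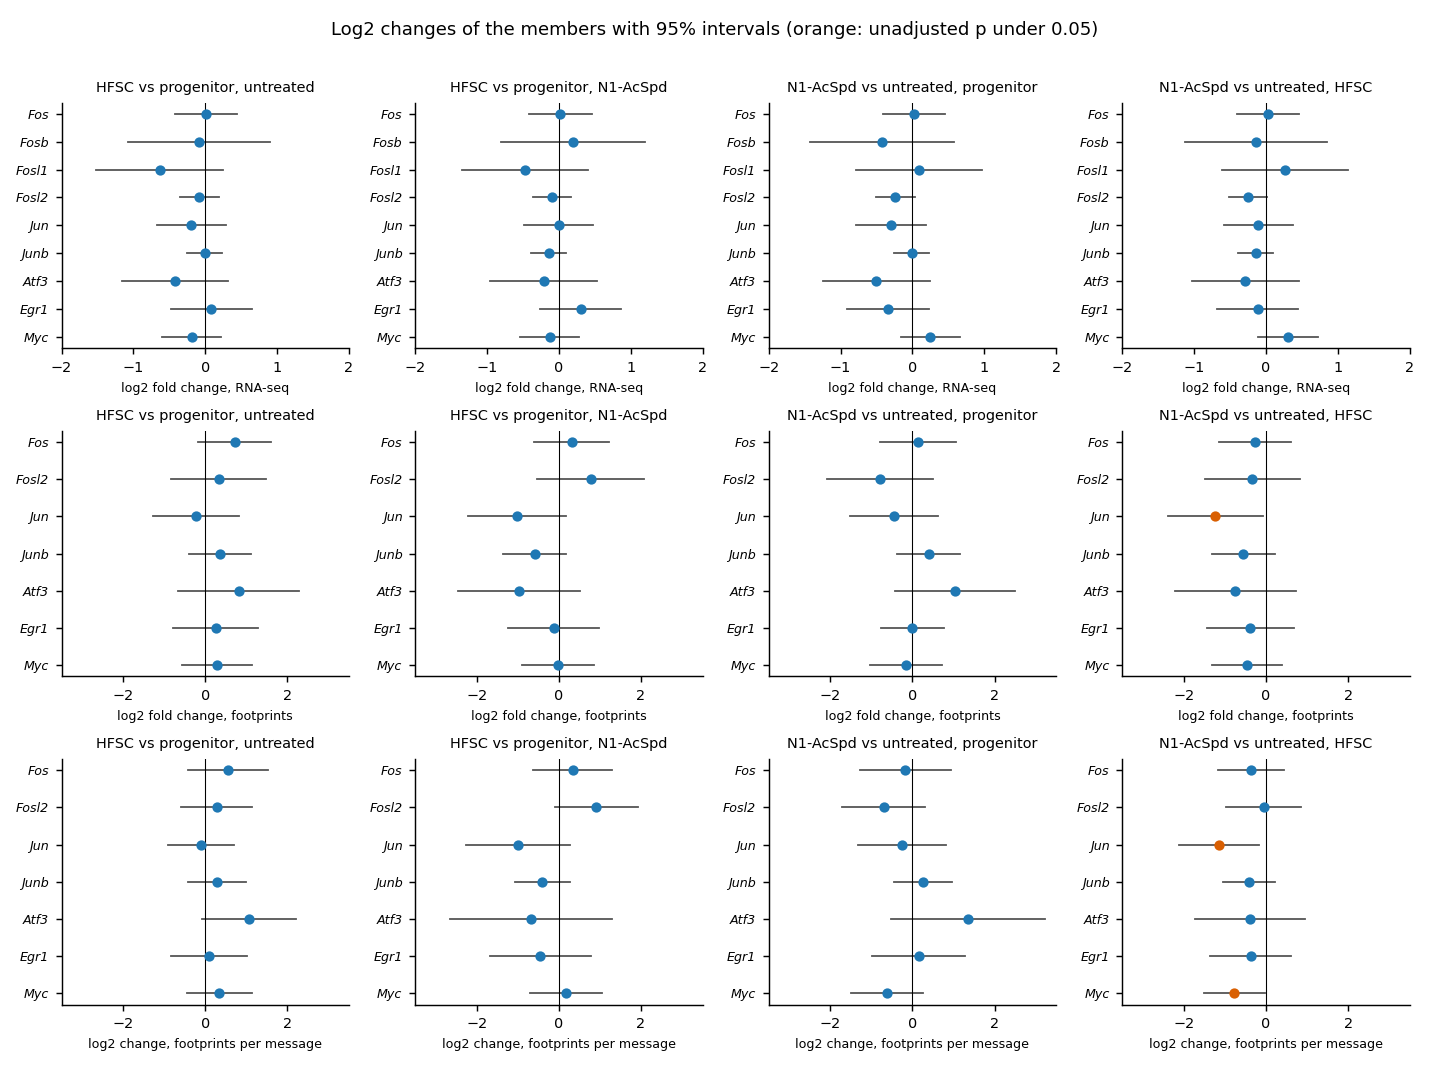
Log2 changes with 95% intervals for RNA-seq (top, 9 members, axis -2 to 2), footprints (middle) and footprints per message (bottom, 7 members each, axes -3.5 to 3.5) in the 4 simple comparisons, with an unadjusted p below 0.05 in orange. Intervals of RNA-seq cross 0 throughout, and orange points are Jun footprints and Jun and Myc footprints per message in the right column, N1-AcSpd in HFSCs.

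Independently of treatment, members differed in how many footprints they carried for their RNA. Per kb of coding sequence Junb had 886 ± 230.2 CPM of footprints (SD, n = 8), above every library of Myc (338 ± 91.7), which was followed by Fos (337 ± 151), Jun (207 ± 75.3), Atf3 (191 ± 128), Fosl2 (155 ± 45.9), Egr1 (134 ± 40.7) and Fosl1 (29.0 ± 38.2). From Myc to Egr1 each neighbour overlapped the next. Divided by RNA per kb of transcript, the ratio was lowest for Egr1 (1.97), Myc (1.98) and Jun (2.07), with 43.3%, 43.5% and 45.6% of 7957 genes lower. It was highest for Atf3 (10.4) and Fosl2 (7.98), above 93.8% and 90.3% of these genes, with Fos (2.72), Fosl1 (3.28) and Junb (3.91) in between. Length of transcript enters this ratio, and Fosl2 has 6537 bases of transcript for 978 coding bases.

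**Figure D5:**
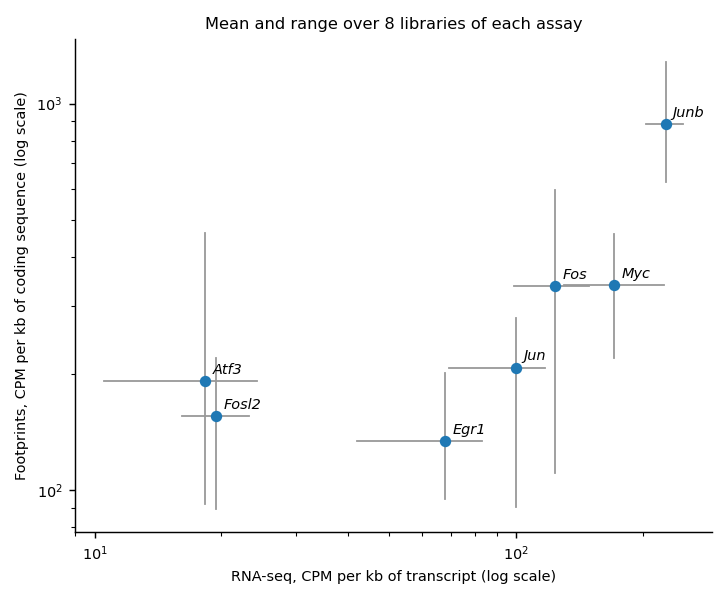
RNA-seq level (CPM per kb of transcript) against footprints (CPM per kb of coding sequence), both on log axes, for the 7 members with footprints in every library, as mean and range over 8 libraries of each assay. Junb is highest on both axes, and Atf3 and Fosl2 reach the footprint level of Jun and Egr1 with less RNA.

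Genes that act with the members were read from lists. Among 13 tested AP-1 partners and related bZIP factors 0 were called in the 4 simple comparisons. Of 32 other immediate early genes, 1 was called in a simple comparison. Plk3, a polo-like kinase of the stress response, was lower in treated HFSCs than in treated progenitors (-0.70 ± 0.12, adjusted p = 0.0426), at 38.5 and 38.8 against 57.8 and 67.5 CPM. This call was lost whichever of the 4 treated libraries was left out (adjusted p = 0.11 to 0.243), with the block (0.0844), with only the libraries compared (0.125) and with sums over transcripts (0.0687). Averaged over treatments Plk3, Plk2 (-0.49 ± 0.11) and Phlda1 (-0.64 ± 0.12) were lower in HFSCs, and Sgk1, a kinase of ion and survival signalling, was higher (1.06 ± 0.16, adjusted p = 0.0124), also in footprints (1.26 ± 0.27, adjusted p = 0.00404). In these averages Plk3 passed with each of the 8 libraries left out in turn, Sgk1 RNA in 7 of 8 such fits (adjusted p = 0.0513 without the first untreated progenitor replicate), Phlda1 in 3 and Plk2 in 2 (adjusted p up to 0.0936 and 0.148), and Sgk1 footprints in 5 of 8 (up to 0.55), with an adjusted p of 0.92 for sums over transcripts. Plk2 had an adjusted p of 0.0661 with the block and of 0.0652 with sums over transcripts.

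Genes of the pathway above the members did not pass in a simple comparison. Of 14 MAP kinase feedback inhibitors Dusp8, a phosphatase of JNK, fell by 0.54 ± 0.096 on the log2 scale with N1-AcSpd averaged over the cell types (adjusted p = 0.0334 in edgeR's test), with 44.5 and 36.2 against 27.9 and 28.2 CPM in progenitors and 39.6 and 34.0 against 23.8 and 26.01 in HFSCs. Leaving out any 1 of the 8 libraries ended this call (adjusted p = 0.0532 to 0.134), and so did the block (0.0572) and sums over transcripts (0.0604). Among 20 upstream kinases and ternary complex factors 0 were called in RNA-seq or Ribo-seq, and the smallest unadjusted p of the simple comparisons was that of Mapk3 between untreated cell types (0.39 ± 0.12, unadjusted p = 0.0111, adjusted p = 0.301). Of 6 heat shock genes 0 were called in RNA-seq or Ribo-seq. Hspa1b, an inducible chaperone, had the smallest unadjusted p of the simple comparisons (0.24 ± 0.11 with N1-AcSpd in progenitors, unadjusted p = 0.0691, adjusted p = 0.62).

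The AP-1 target list was chosen with earlier results of these data known, so counts from it are only a description. Ivl and Sprr1b, which encode cornified envelope proteins, rose with N1-AcSpd in progenitors and were lower in treated HFSCs than in treated progenitors. These were 2 of 15 genes each time, where 0.239% and 0.746% of all genes were called. Ivl went from 21.3 and 21.7 to 56.3 and 56.0 CPM in progenitors (log2 1.38 ± 0.10, adjusted p = 0.0054 in edgeR's test) and reached 29.0 and 29.6 in treated HFSCs (-0.94 ± 0.10 against treated progenitors, adjusted p = 0.0112). Sprr1b went from 52.7 and 46.6 to 134 and 169 CPM (1.61 ± 0.16, adjusted p = 0.0244), against 77.5 and 61.5 in treated HFSCs (-1.12 ± 0.15, adjusted p = 0.0201). The calls changed when a library was left out, while the direction was kept. Without the first or the second untreated progenitor replicate the rise in progenitors did not pass for Ivl (1.37 and 1.41, adjusted p = 0.189 and 0.0854) or Sprr1b (1.70 and 1.54, adjusted p = 0.189 and 0.212), and Sprr1b also did not pass without the second treated progenitor replicate (1.45, adjusted p = 0.0647) or with sums over transcripts (1.62, adjusted p = 0.0627). Between the treated cell types Ivl did not pass without the first replicate of progenitors or of HFSCs (adjusted p = 0.0932 and 0.099) or with only the libraries compared (0.0518), and Sprr1b did not pass whichever of the 4 libraries was left out (adjusted p = 0.0775 to 0.0966), with the block (0.051) or with only the libraries compared (0.0784). Averaged over treatments 6 of the 15 were lower in HFSCs (Ivl, Sprr1b, Plaur, Tgm1, Ccnd1 and Cd44) and 0 higher, where 3.91% of all genes were called. Averaged over cell types 3 rose with N1-AcSpd (Ivl, Sprr1b and Tgm1) and 0 fell, where 1.64% of all genes were called. With each of the 8 libraries left out in turn, Ivl and Sprr1b passed in both averages every time, as did Plaur between the cell types. Tgm1 passed in 5 of 8 such fits between the cell types and in 2 of 8 for N1-AcSpd (adjusted p up to 0.0739 and 0.108), Ccnd1 in 1 (up to 0.113) and Cd44 in 0 of 8 (0.0535 to 0.18). With the block the adjusted p was 0.0595 for Tgm1 with N1-AcSpd, and 0.0502 for Ccnd1 and 0.0595 for Cd44 between the cell types. Mmp13, a collagenase, fell in footprints by 1.79 ± 0.39 averaged over the cell types (adjusted p = 0.0162), from 629 and 272 to 37.3 and 268 CPM in progenitors and from 698 and 128 to 105 and 66.4 in HFSCs, and its RNA ranged from 20.4 to 252 CPM. The footprint call was lost with DESeq2 (-2.04, adjusted p = 1), with sums over transcripts (-1.90, adjusted p = 1), at a minimum mean of 10 counts (adjusted p = 0.239), and when 1 of 5 libraries was left out, namely the first replicate of any group (adjusted p = 0.0559 to 1) or the second treated HFSC replicate (0.123). Late differentiation markers moved with these results. Their 5 genes, of which Ivl and Lor are also on the AP-1 list, summed to 62.9 and 50.1 CPM in untreated and 214 and 137 CPM in treated progenitors. In HFSCs they summed to 27.7 and 27.6 CPM without and 49.2 and 69.8 CPM with N1-AcSpd. By gene, 5 of the 5 were above 0 with N1-AcSpd in progenitors and 4 of the 5 in HFSCs. Among the 15 AP-1 targets N1-AcSpd in HFSCs called 0, as it did over all genes, and Ivl had the smallest p. The summed HFSC markers (5 genes) were lower with N1-AcSpd, from 382 and 424 to 259 and 284 CPM in progenitors and from 1078 and 1248 to 772 and 629 in HFSCs. Such a sum follows its most abundant genes. In progenitors 3 of the 5 markers were below 0 and 2 above it (median log2 change -0.11). In HFSCs 4 of the 5 markers were below 0 and 1 above it (median -0.37). Of these, Krt15, a keratin of bulge stem cells, fell in progenitors by 0.84 ± 0.12 on the log2 scale (adjusted p = 0.0427 in edgeR's test), a call lost whichever of the 4 progenitor libraries was left out (adjusted p = 0.161 to 0.303) and with the block (0.076). Averaged over the cell types, Krt15 RNA was also lower with N1-AcSpd and passed, 1 of the 5 markers. That call was kept in 8 of 8 alternatives that used all libraries. Cd34 in progenitors stood at 0.38 ± 0.38 and did not pass. Whether a larger share of differentiating cells, or a smaller share of cells with HFSC markers, has a part in the changes of Ivl and Sprr1b was not tested, and more such cells cannot be told apart from more RNA per cell in sorted bulk samples. The AP-1 members themselves did not pass in the same comparisons.

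With N1-AcSpd, 1 gene of the MYC network and 1 MYC target passed in RNA-seq, both in the average over cell types. Of 11 genes of the MYC network Mxi1, which competes with MYC for MAX, fell by 0.48 ± 0.079 on the log2 scale averaged over the cell types (adjusted p = 0.0265 in edgeR's test), with 59.1 and 51.4 against 43.2 and 40.0 CPM in progenitors and 54.1 and 51.0 against 34.9 and 37.2 in HFSCs. In that average 5 of the 11 were above 0 and 6 below it. Mxd3, another such competitor, was higher in HFSCs averaged over treatments (1.12 ± 0.21, adjusted p = 0.0267). Leaving out any 1 of the 8 libraries ended the call of Mxi1 (adjusted p = 0.0625 to 0.121), and Mxd3 passed in 2 of 8 such fits (up to 0.0911) and had an adjusted p of 0.0509 with the block. Of 15 MYC targets 0 passed in a simple comparison and 1 in the average over cell types, Nop56, a protein of box C/D ribonucleoproteins in ribosome synthesis (0.43 ± 0.069, adjusted p = 0.0235). It rose from 266 and 274 to 348 and 350.2 CPM in progenitors and from 217 and 226 to 293 and 325 in HFSCs, and the call held in 1 of 8 fits without a library (adjusted p up to 0.127). In that average 12 of 15 targets were above 0 with a median of 0.17, against 47.1% of all genes and a median of -0.015, and 9 of the 15 were higher at an unadjusted p below 0.05, against 7.63% of all genes. In footprints 14 targets were tested, of which 9 were above 0 and 5 below it in this average, 6 and 8 in progenitors and 7 and 7 in HFSCs. The target list was chosen with earlier results of these data known. Its genes share the same 8 libraries of 2 mice and are not independent, so these counts and shares are only a description.

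Odc1 was not among the genes that moved. It measured 294 and 256 CPM in untreated progenitors, 336 and 265 in untreated HFSCs, 338 and 221 in treated progenitors and 213 and 269.8 in treated HFSCs. Its log2 change with N1-AcSpd was 0.024 ± 0.21 in progenitors and -0.31 ± 0.21 in HFSCs, with adjusted p = 0.992 and 0.791 in edgeR's test. In Ribo-seq Odc1 had 0 footprints in 6 libraries, 2 in the first treated and 3 in the second untreated HFSC library. The handling of reads that match several transcripts is not given, so translation of Odc1 was not read from these counts.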

How the data were processed

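RNA-seq and Ribo-seq were done on sorted cells of the same mice, and the authors deposited counts per transcript for both, unscaled. For Ribo-seq the methods name flexbar for trimming, bowtie for the removal of rRNA and tRNA reads and STAR for alignment to mm10. The submitters' processing notes list Bowtie 1.2.3, STAR 2.7.3a, featureCounts and GRCm38.p5 for all libraries, and strand and the handling of reads that match several transcripts are not given in the sources used here. Gene symbols came from 1 of the 4 deposited tables of differential translation. The fold change and p-value columns of those tables hold the authors' own comparisons and were not used.

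For each gene the transcript with the most footprints was kept, and its counts enter as deposited. edgeR 4.0.16 in R 4.3.3 fitted all groups of an assay by quasi-likelihood with TMM factors (mean count of 1 or more per gene, Benjamini-Hochberg adjustment, threshold 0.05). TE was the interaction of assay and group over the libraries of 1 comparison, called at an unadjusted p below 0.05 as in the methods of the study. The scripts were tested on simulated data. Spread between replicates was a coefficient of variation of 15.0% (RNA-seq) or 34.7% (Ribo-seq). Intervals and floors (3 counts) of single libraries cover counting error only. Loci and lengths are from GENCODE M21 (GRCm38), and promoters from RefSeq (GRCm38.p6).

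Samples with 1 replicate number come from 1 mouse per the labels, and the replicate number pairs them. The correlations of the difference between mice that check this pairing are given in the report. Alternatives were DESeq2 1.42.0, RLE scaling, count minimums of none or a mean of 10, the replicate block, only the libraries compared, other choices of transcript, the other p-value and each replicate left out. The block with exchanged numbers, in RNA-seq and TE, and the alternatives for genes of the lists were added after the data were seen.

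The members, the gene lists and the tests were chosen with earlier results of these data known. All members are named. Fold changes are given for a member where the unadjusted p is below 0.05 (besides intervals for Fos and Junb, the Myc average, and values under alternatives that change a call), and of each list the genes called in a simple comparison are named, or else the one with the smallest p. Genes of the lists called only in an average (Dusp8, Mxi1, Mxd3, Nop56, Plk2, Phlda1, Sgk1, Plaur, Tgm1, Ccnd1, Cd44 and Mmp13), and Krt15 and Cd34 of the HFSC markers, were named after their values were seen. A gene of the lists is not reported here. Likeness is the Pearson r of log2(CPM + 0.5) over genes whose mean count is 10 or more.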

Additional observations from a re-analysis of the deposited data

How the results depend on the processing

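Members called in RNA-seq or Ribo-seq numbered 0 under every alternative run, in all 7 comparisons of each, with these exceptions: an unadjusted p gave 1 member in the RNA-seq average over cell types, 1 in Ribo-seq with N1-AcSpd in HFSCs and 1 in its average over cell types, and the replicate block with exchanged numbers gave 1 in the RNA-seq average over cell types. In TE between untreated cell types, where none was called, DESeq2 called 2 (Fosl1 and Atf3), the replicate block 2, and leaving out a replicate 0 to 1. With N1-AcSpd in progenitors the replicate block called 1 and leaving out a replicate 0 to 1. With N1-AcSpd in HFSCs, where 2 were called, an adjusted p called 0, the replicate block 1, sums over transcripts 1 (Myc, while Jun at -1.14 had an unadjusted p = 0.0575) and leaving out a replicate 0 to 1. Shares of all genes called in TE with DESeq2, the block, sums over transcripts or a replicate left out are not given here. No direction of Fosl2, Jun or Myc turned. Leaving out the second replicate of untreated progenitors (Fos) or of untreated HFSCs (Fosl1), or the first of treated progenitors (Atf3), made those single calls. The block with exchanged numbers left 2 TE calls with N1-AcSpd in HFSCs and 0 between treated cell types. The replicate block changed no other call of a member.

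Counts over all genes moved more. Between untreated cell types the RNA-seq calls went from 21 to 268 with DESeq2, 168 with no minimum count, 3 with the block and 751 with exchanged numbers. Between treated cell types they went from 106 to 380, 256, 44 and 903, with N1-AcSpd in progenitors from 34 to 178, 107, 7 and 446, and in HFSCs from 0 to 124, 38, 0 and 269. In the average over treatments they went from 556 to 965, 873, 444 and 1948, and over cell types from 233 to 581, 419, 135 and 1260. Only the libraries compared gave 10, 27, 30 and 5 in the simple comparisons, and sums over transcripts gave 1 with N1-AcSpd in progenitors, 70 between treated cell types and 147 in the average over cell types. Leaving out a replicate gave 1 to 7 between untreated cell types, 2 to 43 between treated ones, 0 to 3 with N1-AcSpd in progenitors (0 without either untreated replicate), 0 to 4 in HFSCs, 190 to 457 in the average over treatments and 42 to 137 over cell types. In Ribo-seq the calls were 2, 3, 2 and 0 in the simple comparisons, 13 and 7 in the averages and 0 in the interaction. DESeq2 gave 2, 1, 0, 0, 5, 0 and 0, sums over transcripts 1 in the average over treatments and 0 otherwise, and leaving out a replicate 1 to 15, 0 to 5, 0 to 13, 0 to 1, 2 to 23, 2 to 19 and 0. In RNA-seq a minimum mean of 10 counts gave 20 with N1-AcSpd in progenitors. At a minimum mean of 10 counts the TE calls were 86, 89, 124 and 112 against 459, 500, 520 and 576, with 1926 to 2590 genes tested. The cause of these shifts was not tested. Depth limits Ribo-seq most, since 3 counts equal 12.2 to 75.5 CPM, and differences of single members under these levels were not detectable.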
